A study of Mus musculus with 6 samples.

Results

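Cancer-associated fibroblast genes were described in primary ovarian tumors that grew in *Tgm2* knockout mice and in wild-type (WT) mice. The 10 genes were chosen by name, as a list of fibroblast, myofibroblast and pericyte genes, from the 20076 genes of the expression table: *Acta2*, *Tagln*, *Pdgfra*, *Pdgfrb*, *Fap*, *Thy1*, *Postn*, *Dcn*, *Lum* and *Cthrc1*. All 10 were measured in every tumor and all 10 passed the filter on low values, the lowest value of any of them in any tumor being 86.1 normalized counts.

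Bulk RNA was sequenced from the tumors of 3 WT and 3 *Tgm2* knockout mice. WT mice were C57BL/6, and mice of both genotypes had received ID8 *Trp53*-/- *Brca1*-/- cells, which are ovarian cancer cells of the mouse, in the bursa around the ovary 6 weeks earlier. *Tgm2* encodes transglutaminase 2, an enzyme that crosslinks proteins, and the comparison asks how its loss in the host, not in the injected cells, relates to expression in the tumor. The injected cells carry *Tgm2* in both groups, and the sample descriptions name no other treatment. The deposited values are read counts divided by a size factor for each library, called normalized counts here. They summed to 34801694, 35325875 and 33916288 across the WT group, against 32316613, 35827822 and 37717165 across the knockout group, and values of a group stand here in the order of tumors 1 to 3. These sums follow the scaling and are not depths. In genes with a single annotated transcript, 96.6% to 99.2% of low values lay within 0.1 of a whole multiple of what 1 read is worth, 0.938 to 1.094 normalized counts, and from this the libraries were estimated at 33300000 to 37100000 assigned reads.

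Cancer-associated fibroblasts are the stromal cells that build and remodel the matrix of a solid tumor. In their myofibroblast state they carry smooth muscle actin and contract, in an inflammatory state they secrete cytokines, and related mural cells, the pericytes, wrap small vessels. Signals of the PDGF and TGF-beta families are known to recruit and activate them, and serum response factor, which binds the CArG box of contractile gene promoters, is a known activator of *Acta2* and *Tagln*. In a bulk sample, fewer cells of a type and less RNA per cell cannot be told apart, and cells other than fibroblasts, including the cancer cells, smooth muscle of the ovary and vessel walls, can hold the same transcripts.

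Promoter sequences, the 250 bases before the RefSeq start in GRCm38.p6, were matched for 3 of the 10 genes (*Acta2*, *Pdgfra* and *Postn*) and for 12 of 15 other contractile genes. They are shown because the CArG box is the best known motif of contractile promoters: *Acta2*, *Pdgfra* (a growth factor receptor) and *Postn* (a matricellular protein) are the matched genes of the 10, and *Myl9* (myosin regulatory light chain) was added for its match to this motif. The capitals mark a CArG box, in which 1 base of the A and T core may be G or C, and the MCAT motif, CATTCC or GGAATG. Both motifs were searched on both strands, and no matches overlapped in the promoters shown.
Acta2, chr19:34255374-34255623, minus strand: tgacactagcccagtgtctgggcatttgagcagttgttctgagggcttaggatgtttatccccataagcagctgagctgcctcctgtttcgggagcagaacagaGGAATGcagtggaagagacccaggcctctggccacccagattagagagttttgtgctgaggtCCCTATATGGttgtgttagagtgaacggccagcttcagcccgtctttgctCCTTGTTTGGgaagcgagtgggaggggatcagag
Myl9, chr2:156775214-156775463, plus strand: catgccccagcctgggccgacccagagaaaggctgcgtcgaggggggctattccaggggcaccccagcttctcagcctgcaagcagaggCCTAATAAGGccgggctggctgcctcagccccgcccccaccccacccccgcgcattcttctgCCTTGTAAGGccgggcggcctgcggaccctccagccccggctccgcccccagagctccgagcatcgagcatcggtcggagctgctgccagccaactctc
Pdgfra, chr5:75152001-75152250, plus strand: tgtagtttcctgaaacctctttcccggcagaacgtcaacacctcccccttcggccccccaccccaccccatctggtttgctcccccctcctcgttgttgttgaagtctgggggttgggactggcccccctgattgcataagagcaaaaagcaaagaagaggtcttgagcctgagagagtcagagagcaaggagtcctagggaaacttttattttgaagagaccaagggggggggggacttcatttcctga
Postn, chr3:54360857-54361106, plus strand: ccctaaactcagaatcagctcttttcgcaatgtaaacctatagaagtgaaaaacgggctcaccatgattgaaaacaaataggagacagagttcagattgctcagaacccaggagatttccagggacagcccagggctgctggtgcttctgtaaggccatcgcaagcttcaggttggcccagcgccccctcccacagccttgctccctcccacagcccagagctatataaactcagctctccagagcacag

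The *Acta2* promoter held CCCTATATGG, beginning 84 bases before the start, and CCTTGTTTGG, beginning 34 bases before it, together with 1 MCAT match; this RefSeq start lies 217 bases inside the gene as GENCODE M21 draws it. In *Myl9* the matches were CCTAATAAGG, at 161 bases, and CCTTGTAAGG, at 99 bases. No match to these letters was found in the windows of *Pdgfra* and *Postn*, and among the 12 other contractile genes *Myl9* was the 1 with a CArG match, while 5 held the MCAT motif and *Myl9* did not. Of 32851 RefSeq promoter windows outside chromosome 18, 8.59% held a CArG box with 1 G or C allowed. A CArG box with a pure A and T core was held by 1.47%, and the MCAT motif by 12.6%. A match describes the sequence and was not tested as a binding site.

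The tumors differed in the transcripts of other tissues they held, within the groups. For the white adipocyte genes the median level differed between the groups as well, though the sums overlapped. Of 12 genes of the steroid-making and follicle cells of the ovary, 10 were highest in knockout tumor 1, and 7 of these were next highest in WT tumor 1. *Cyp11a1*, the first enzyme of steroid synthesis, was at 8648, 207.9 and 158.1 normalized counts across the WT group, against 22480, 208.9 and 178.1 across the knockout group. *Foxl2*, a granulosa cell regulator, reached 1282 in knockout tumor 1 and lay between 23.7 and 218.6 elsewhere, and the follicle hormone receptor gene *Fshr* was listed at 0 in 4 tumors. The summed level of the 12 granulosa and theca genes was 28343, 18454 and 10576 across the WT group, against 77858, 15183 and 18917 across the knockout group, and was largest in tumor 1 of either group. Other genes of the list had another order. *Star*, a cholesterol carrier, had the highest mean normalized count of the list, not scaled for length. It was at 5987, 8970 and 4223 across the WT group, against 5340, 5450 and 7639 across the knockout group. The inhibin gene *Inha* was lowest in WT tumor 1, at 2585, and the steroid factor gene *Nr5a1* was highest in knockout tumor 3, at 6180. WT tumor 3 stood apart by some epithelial genes. The adhesion molecule genes *Epcam* and *Cdh1* were at 8047 and 6588 there, against at most 1307 and 1876 in the other tumors. *Krt7*, *Krt18*, *Muc1* and *Pax8* of the same list were also highest there. The keratin genes *Krt8* and *Krt19* and *Wt1*, a factor of the ovarian surface and mesothelium, had lowest values of 10373, 11260 and 13131 normalized counts in any tumor. *Krt8* and *Krt19* were highest in WT tumor 2, at 21948 and 18236. *Wt1* was lowest in WT tumor 3, and *Muc16* was highest in knockout tumor 1, at 1771. The 16 white adipocyte genes summed to 64349, 72433 and 48800 across the WT group, against 68773, 227620 and 151912 across the knockout group. Their median level, as log2 distance from the mean of 6 tumors, was -0.83, -0.51 and -1.14 across the WT group, against -0.16, 1.55 and 0.96 across the knockout group, and 9 of the 16 had every knockout tumor above every WT tumor, against 5.18% of the 19667 genes tested. The part of these tissues in the fibroblast results was not tested.

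*Tgm2* itself, on chromosome 2, was at 14978, 12155 and 13180 normalized counts across the WT group, against 5853, 6071 and 8157 across the knockout group. No knockout tumor reached the lowest WT tumor, and the log2 fold change, -1.02 (standard error 0.22), had an adjusted p of 0.391 in limma.

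None of the 10 fibroblast genes differed between the groups beyond the limits. The limits were an adjusted p of 0.05 and a log2 fold change above 1 in size, and 0 of 10 passed them, against 0.102% of all 19667 genes tested, which was 20 genes, all higher in the knockout tumors. At an unadjusted p of 0.05 with no fold limit, 3 of the 10 passed (*Tagln*, *Pdgfra* and *Lum*), against 5.78% of all genes, and with the fold limit as well, *Tagln* alone. *Tagln* was also the 1 gene of the 10 whose groups did not overlap, a pattern shown by 10.5% of all genes, 5.33% with the knockout tumors lower and 5.18% with them higher. The log2 fold change was below 0 for 4 of 10, against 52.7% of all genes, and its median was 0.09, against -0.03 over all genes. The 95% intervals of the log2 fold changes reached between 0.61 and 1.99 to either side. Without WT tumor 1 and knockout tumor 1, the tumors with the largest granulosa and theca sums, 0 of 10 passed the limits and the median was 0.46. Without WT tumor 3, the one with the largest sum over the epithelial list, these were 0 and -0.09. With the level of the white adipocyte genes as a covariate the median was -0.41.

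**Figure D1:**
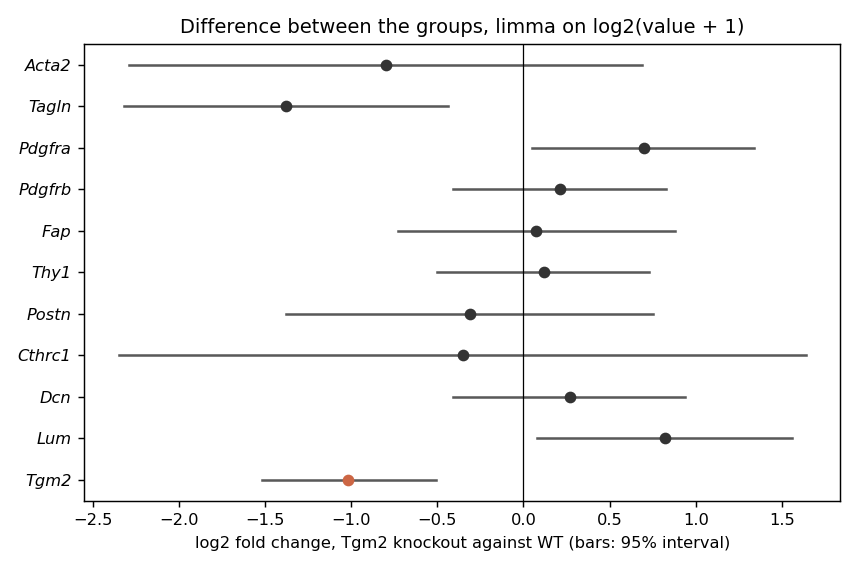
Log2 fold change of each fibroblast gene and of *Tgm2*, knockout against WT tumors, on the scale of log2(normalized count + 1); points are limma estimates from 3 tumors against 3 and bars their 95% intervals. The interval lies wholly below 0 for *Tagln* and *Tgm2* and wholly above 0 for *Pdgfra* and *Lum*, and none of these passed adjustment over all genes.

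Levels can be set side by side between genes only per length. The length used merges the exons of all annotated transcripts, 9 for *Postn* and 5 for *Dcn* against 1 for *Lum*. It can therefore understate genes with many transcripts, and the order below is approximate. Per kilobase of merged exons, the mean over the 6 tumors was highest for *Tagln*, at 8353 normalized counts, and *Acta2*, at 7610. *Dcn* at 3128 and *Lum* at 2043 followed, then *Postn* at 851, *Thy1* at 828, *Pdgfrb* at 472, *Cthrc1* at 306, *Pdgfra* at 174 and *Fap* at 76.1. The neighbours *Tagln* and *Acta2* changed places between the groups, as did *Postn* and *Thy1*, and the ranges over the 6 tumors overlapped for every pair of neighbours in this order except *Pdgfra* and *Fap*. By this length, the contractile genes and the small proteoglycans stood at the top of the list in either genotype. *Pdgfrb*, *Cthrc1*, *Pdgfra* and *Fap* were the last 4.

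**Figure D2:**
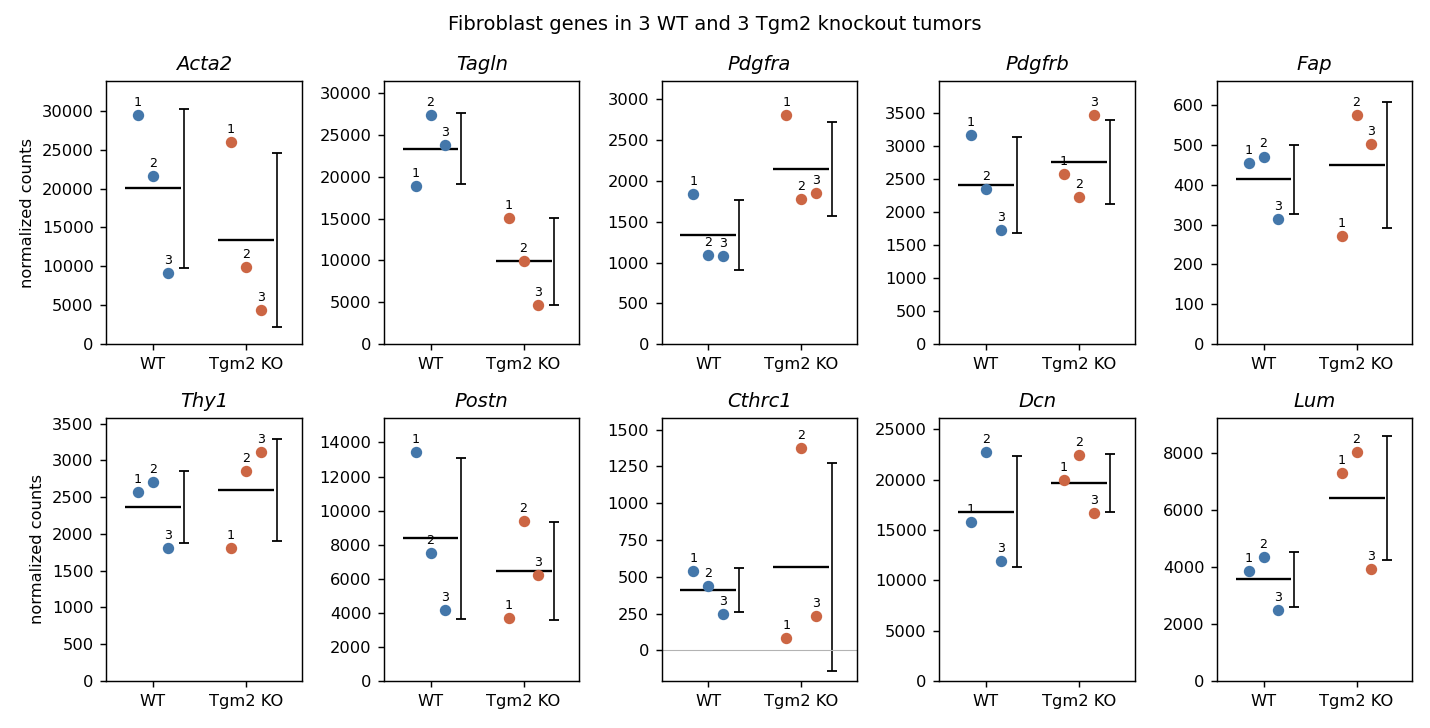
Normalized counts of the 10 fibroblast genes in each tumor, with the tumor number over each point; the black line is the mean of 3 tumors and the bar beside it spans 1 SD to either side. *Tagln* is the panel in which all WT tumors lie above all knockout tumors, and *Cthrc1* spans from 86.1 to 1374 within the knockout group, where the SD exceeds the mean and its bar runs below 0.

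Among the contractile genes, *Tagln* was lower in every knockout tumor than in any WT tumor, as 5.33% of all genes were, and *Acta2* was not. *Tagln* (chromosome 9, 45929619 to 45936058, minus strand of GRCm38) encodes transgelin, an actin-binding protein of smooth muscle and myofibroblasts. Its normalized counts were 18854, 27320 and 23830 across the WT group, against 15043, 9948 and 4640 across the knockout group. The highest knockout tumor lay below the lowest WT tumor, and knockout tumor 3 was the lowest of all. The means were 23335 ± 4255 and 9877 ± 5202 (SD, n = 3 each), 2.6-fold lower in the knockout group as a ratio of means of log values. The log2 fold change was -1.38 (standard error 0.41, 95% interval -2.32 to -0.44), with an unadjusted p of 0.00937 and an adjusted p of 0.67 in limma. An exact two-sided permutation test gave p = 0.1, the smallest value that 3 tumors against 3 allow. Without knockout tumor 3 the log2 fold change was -0.92, and without WT tumor 1 and knockout tumor 1 it was -1.91.

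*Acta2* (chromosome 19, 34241090 to 34255590, minus strand) encodes alpha smooth muscle actin, the usual marker of myofibroblasts. It was at 29399, 21571 and 9176 normalized counts across the WT group, against 25933, 9856 and 4333 across the knockout group. The groups overlapped widely: in each of them tumor 1 was the highest and tumor 3 the lowest, and knockout tumor 1 exceeded WT tumors 2 and 3. The means were 20049 ± 10197 and 13374 ± 11222 (SD, n = 3 each), and the log2 fold change was -0.80 (standard error 0.65, 95% interval -2.29 to 0.69, adjusted p = 0.898 from limma). It moved to -0.17 without knockout tumor 3 and to -1.46 without knockout tumor 1. With the level of the white adipocyte genes as a covariate it was 0.43. The ratio of *Acta2* to *Tagln* was 1.56, 0.79 and 0.39 across the WT group, against 1.72, 0.99 and 0.93 across the knockout group, and was largest in WT tumor 1 and knockout tumor 1. *Actg2* encodes the enteric smooth muscle actin, a nearly identical protein, and the division of reads between the genes was not tested.

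The 15 other contractile and smooth muscle genes had log2 fold changes below 0 throughout, but the knockout tumors were unlike each other. All 15 values were below 0, with a median of -1.10 and a range from -1.89 to -0.16, while 0 passed the limits and none had groups without overlap. *Des*, the muscle intermediate filament desmin, had the smallest p of the list: it was at 13117, 7629 and 4973 normalized counts across the WT group, against 6634, 2304 and 943.9 across the knockout group (log2 fold change -1.70, standard error 0.65, adjusted p = 0.818 from limma). Highest in mean normalized counts, not scaled for length, were *Tpm1*, *Cald1* and *Mylk*. These genes of a tropomyosin, an actin regulator and the myosin light chain kinase had -0.42, -0.23 and -0.72. Knockout tumor 1 lay with the WT tumors and knockout tumor 3 lay far below the rest: the median level of the list, as log2 distance from the mean of 6 tumors, was 0.80, 0.42 and 0.07 across the WT group, against 0.86, -0.60 and -1.83 across the knockout group. *Actg2* ran from 11045 in WT tumor 1 to 313 in knockout tumor 3, and the smooth muscle myosin *Myh11* from 11171 to 656 in the same tumors. The cardiac and smooth muscle regulator *Myocd*, at 248.5 in knockout tumor 1, had its highest value there. The sums over the list were 128029, 101088 and 65895 across the WT group, against 98262, 54615 and 43965 across the knockout group, with *Pln* listed at 0 in knockout tumor 3. The median log2 fold change was -0.39 without knockout tumor 3, -1.74 without knockout tumor 1, and -1.62 without both WT tumor 1 and knockout tumor 1. With the level of the white adipocyte genes as a covariate it was 0.57, and the part of adipose tissue in these values was not tested. The 10 skeletal muscle genes examined summed to between 492 and 1232 normalized counts in any tumor.

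**Figure D3:**
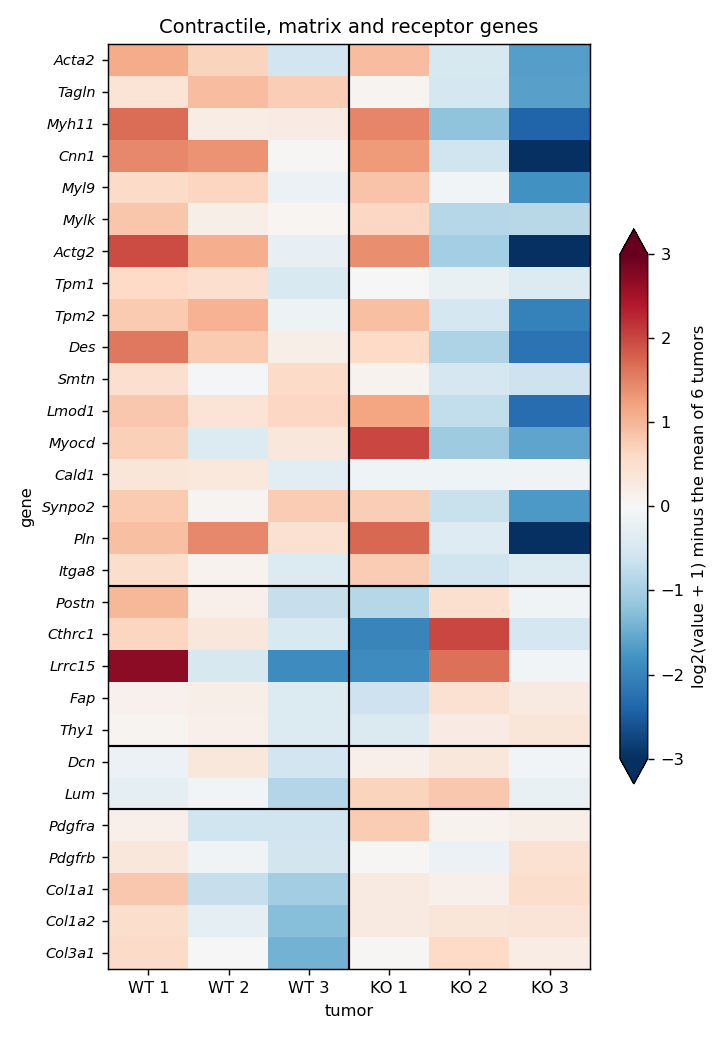
Level of the contractile genes, the activated fibroblast genes, the proteoglycans, and the receptors with collagens in each tumor, as log2(value + 1) minus the mean of the 6 tumors; each row is a gene and the color scale ends at 3 to either side. The contractile block is high in WT tumor 1 and knockout tumor 1 and lowest in knockout tumor 3, an order that the blocks under it do not share.

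The PDGF receptors had their highest values in different knockout tumors. *Pdgfra* (chromosome 5, 75152292 to 75198215, plus strand) encodes the receptor carried by most tissue fibroblasts. Its normalized counts were 1836, 1089 and 1083 across the WT group, against 2803, 1783 and 1852 across the knockout group. All knockout tumors exceeded WT tumors 2 and 3, and WT tumor 1 lay just below knockout tumor 3 and above knockout tumor 2. The means were 1336 ± 433 and 2146 ± 570 (SD, n = 3 each), and the log2 fold change was 0.70 (standard error 0.28, 95% interval 0.05 to 1.34), with an unadjusted p of 0.0371 and an adjusted p of 0.821 in limma. Its range when 1 tumor was left out was 0.49 to 0.95, and with the adipocyte covariate the log2 fold change was 1.38.

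*Pdgfrb* (chromosome 18, 61045150 to 61085061, plus strand), the receptor of pericytes and many activated fibroblasts, was at 3169, 2354 and 1725 across the WT group, against 2574, 2235 and 3470 across the knockout group. The groups overlapped, with a log2 fold change of 0.21 (95% interval -0.41 to 0.83, adjusted p = 0.929 from limma), which was -0.01 without WT tumor 3. The ratio of *Pdgfra* to *Pdgfrb* was 0.58, 0.46 and 0.63 across the WT group, against 1.09, 0.80 and 0.53 across the knockout group, with knockout tumor 3 within the WT range.

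Ligands and signal genes of the PDGF and TGF-beta pathways showed no difference past the limits. Of 23 such genes, 0 passed in either direction, 14 had a log2 fold change above 0 and 9 below, and the median was 0.06, from -0.08 to 0.19 when 1 tumor was left out and -0.57 with the adipocyte covariate. The PDGF ligand genes *Pdgfa*, *Pdgfb*, *Pdgfc* and *Pdgfd* had log2 fold changes of -0.35, -0.28, -0.11 and 0.26. For the TGF-beta ligands *Tgfb1*, *Tgfb2* and *Tgfb3* these were 0.07, 0.10 and 0.29. None of these ligands differed by more than 0.35 in either direction, and none passed the test. *Ccn2* (connective tissue growth factor), a known TGF-beta target and the most abundant gene of the list, was at 13938, 11371 and 8698 normalized counts across the WT group, against 7509, 13403 and 13820 across the knockout group, and *Tgfbi*, another target, had a log2 fold change of 0.10. The receptor gene *Tgfbr2* had 0.34, and the co-receptor gene *Tgfbr3*, with the smallest p of the list, had 0.76 (adjusted p = 0.891 from limma), its highest value, 2129, lying in knockout tumor 1.

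Pericyte genes were divided evenly. Of 12, 6 log2 fold changes were above 0 and 6 below, with a median of -0.04, which ranged from -0.21 to 0.15 when 1 tumor was left out and was -0.53 with the adipocyte covariate, and 0 passed the limits. *Rgs5*, a pericyte regulator of G protein signals, was at 3379, 4694 and 2495 normalized counts across the WT group, against 2499, 4425 and 3864 across the knockout group, a log2 fold change of 0.04. *Mcam* and *Cspg4* (NG2), surface markers of mural cells, had -0.12 and -0.23. *Rgs4* had the smallest p, with values of 813.1, 1073 and 566.9 across the WT group, against 355.6, 584.8 and 230.6 across the knockout group (log2 fold change -1.12, adjusted p = 0.768 from limma). Its groups overlapped by 1 tumor on each side, WT tumor 3 and knockout tumor 2. *Kcnj8*, a potassium channel gene of pericytes, was the 1 gene of the 12 without overlap, against 10.5% of all genes, at 516.1, 551.4 and 395.7 across the WT group, against 366.5, 336.4 and 233.4 across the knockout group (log2 fold change -0.65, adjusted p = 0.874 from limma).

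*Fap* and *Thy1* ranked the tumors almost alike and did not separate the groups. *Fap* (chromosome 2, 62500943 to 62574075, minus strand) encodes fibroblast activation protein, a surface protease of activated stroma. It was at 455.4, 470.5 and 312.9 normalized counts across the WT group, against 270.6, 573.7 and 502.6 across the knockout group. Knockout tumors 2 and 3 were the highest and knockout tumor 1 the lowest of all 6. The log2 fold change was 0.07 (95% interval -0.73 to 0.88, adjusted p = 0.984 from limma), and its sign turned when WT tumor 3, knockout tumor 2 or knockout tumor 3 was left out, at -0.11, -0.14 and -0.04.

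*Thy1* (chromosome 9, 44043384 to 44048579, plus strand) encodes the surface glycoprotein CD90, which in mice marks T cells as well as fibroblasts. Its normalized counts were 2574, 2711 and 1811 across the WT group, against 1803, 2861 and 3114 across the knockout group. As for *Fap*, knockout tumors 2 and 3 were the highest and knockout tumor 1 the lowest, though it nearly equalled WT tumor 3. The log2 fold change was 0.12 (95% interval -0.50 to 0.73, adjusted p = 0.959 from limma), with -0.07 without WT tumor 3 and -0.04 without knockout tumor 3. T cell genes were present beside it: the summed level of 14 of them was 2256, 1481 and 1477 across the WT group, against 2435, 2859 and 4530 across the knockout group. All 14 log2 fold changes were above 0, with a median of 0.97, 7 had every knockout tumor above every WT tumor, against 5.18% of all genes, and 0 passed the limits. The median was 0.47 with the adipocyte covariate, and 0.64 without knockout tumor 3. *Cd4* had the smallest p and the highest mean normalized count of the list, not scaled for length. It was at 361.2, 137.6 and 159.8 across the WT group, against 448.7, 440.8 and 893.1 across the knockout group (log2 fold change 1.49, adjusted p = 0.682 from limma). *Lck* and *Trbc2* had 0.42 and 0.75. The part of T cells in *Thy1* was not tested.

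The matricellular genes overlapped between the groups. *Postn* (chromosome 3, 54361109 to 54391037, plus strand) encodes periostin, which is secreted into fibrotic and tumor matrix. It was at 13435, 7502 and 4154 normalized counts across the WT group, against 3714, 9408 and 6230 across the knockout group. WT tumor 1 was the highest and knockout tumor 1 the lowest, with means of 8364 ± 4700 and 6451 ± 2854 (SD, n = 3 each). The log2 fold change was -0.31 (95% interval -1.38 to 0.75, adjusted p = 0.937 from limma), and it turned to 0.11 without WT tumor 1, to 0.03 without knockout tumor 1 and to 0.46 without both. With the adipocyte covariate it went the other way, to -1.94.

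*Cthrc1* (chromosome 15, 39076932 to 39087121, plus strand), a secreted collagen triple helix repeat protein of activated fibroblasts, had the widest spread of the 10. Its values were 539.7, 439.4 and 249.2 across the WT group, against 86.1, 1374 and 237.0 across the knockout group, a 15.95-fold range within the knockout group against 2.17-fold within the WT group. Knockout tumor 2 alone exceeded every WT tumor, and knockout tumor 1 held the lowest value. The log2 fold change was -0.35 (95% interval -2.35 to 1.64, adjusted p = 0.962 from limma), although the knockout mean, 566, exceeded the WT mean, 409. It was 0.55 without knockout tumor 1 and -1.44 without knockout tumor 2. *Lrrc15*, a membrane protein of TGF-beta driven myofibroblasts, shared the contrast of tumors: it was at 408.1, 44.9 and 16.2 normalized counts across the WT group, against 16.1, 197.2 and 59.1 across the knockout group. WT tumor 1 and knockout tumor 2 thus held the most *Postn*, *Cthrc1* and *Lrrc15* transcripts of their groups.

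Of the small leucine-rich proteoglycans, *Lum* lay above the WT range in 2 knockout tumors and *Dcn* in none. *Dcn* and *Lum* encode decorin and lumican, which bind collagen fibrils and set their spacing, and their genes are neighbours on chromosome 10, *Dcn* from 97479609 to 97518143 and *Lum* from 97565128 to 97572703, both on the plus strand and 46984 bases apart. *Lum* was at 3860, 4341 and 2503 normalized counts across the WT group, against 7319, 8044 and 3946 across the knockout group. Knockout tumors 1 and 2 exceeded every WT tumor, while knockout tumor 3 lay between WT tumors 1 and 2. The means were 3568 ± 953 and 6436 ± 2187 (SD, n = 3 each), with a log2 fold change of 0.82 (standard error 0.32, 95% interval 0.08 to 1.56), an unadjusted p of 0.0336 and an adjusted p of 0.819 in limma. It kept its sign in every fit, from 0.56 to 1.14.

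*Dcn* was at 15817, 22736 and 11930 normalized counts across the WT group, against 19932, 22427 and 16715 across the knockout group. Its groups overlapped, WT tumor 2 being the highest and WT tumor 3 the lowest, with a log2 fold change of 0.27 (95% interval -0.41 to 0.94, adjusted p = 0.914 from limma). The fold change ranged from 0.04 to 0.51 when 1 tumor was left out and was -0.18 with the adipocyte covariate. The ratio of *Lum* to *Dcn* was 0.244, 0.191 and 0.21 across the WT group, against 0.367, 0.359 and 0.236 across the knockout group. Knockout tumors 1 and 2 lay above the WT range and knockout tumor 3 within it.

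Other matrix genes of fibroblasts had log2 fold changes mostly above 0, none of them past the limits. Of 24 genes, 20 had a log2 fold change above 0 and 4 below, with a median of 0.36 and a range from -0.18 to 0.93. *Sparc*, *Col3a1* and *Bgn* encode a collagen-binding glycoprotein, a fibrillar collagen chain and biglycan. They were highest in mean normalized counts, not scaled for length, with log2 fold changes of 0.08, 0.57 and 0.29. *Col6a2*, a chain of the microfibrillar collagen, had the smallest p: it was at 11130, 8241 and 4280 normalized counts across the WT group, against 19752, 10986 and 12600 across the knockout group (log2 fold change 0.93, adjusted p = 0.826 from limma). The median level of the list was lowest in WT tumor 3: it was 0.45, -0.11 and -0.96 across the WT group, against -0.20, 0.24 and 0.24 across the knockout group, as log2 distance from the mean of 6 tumors, and without WT tumor 3 the median log2 fold change was 0.07. It was 0.72 without WT tumor 1 and -0.49 with the adipocyte covariate.

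No gene of inflammatory fibroblasts passed the limits. Of 16 genes, 6 had a log2 fold change above 0 and 10 below, with a median of -0.25. The median ranged from -0.35 to -0.09 when 1 tumor was left out, and was 0.08 without WT tumor 1 and knockout tumor 1 and -0.61 with the adipocyte covariate. *Clec3b*, the gene of tetranectin, had the smallest p: it was at 236.8, 254.4 and 140.2 normalized counts across the WT group, against 718.1, 1148 and 507.4 across the knockout group. Every knockout tumor exceeded every WT tumor (log2 fold change 1.87, standard error 0.38, adjusted p = 0.347 from limma). *Il1r1*, the receptor gene of interleukin-1, was lower in every knockout tumor, at 2740, 2329 and 2449 across the WT group, against 1809, 1953 and 1944 across the knockout group (log2 fold change -0.40, adjusted p = 0.866 from limma). These were 2 of the 16 genes without overlap, against 10.5% of all genes. The complement gene *C3*, *Ly6a* (Sca-1) and the chemokine gene *Cxcl12* were highest in normalized counts, not scaled for length, with -0.17, 0.07 and 0.03. The neutrophil chemokine *Cxcl1* had -1.18, and *Il6* was at most 36.9 normalized counts in any tumor.

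In a list of 10 antigen-presenting fibroblast genes, 1 gene passed the limits, which 0.102% of all genes did. *Slpi*, a secreted protease inhibitor, rose in the knockout tumors: it was at 514.8, 366.8 and 340.0 normalized counts across the WT group, against 3607, 5989 and 6720 across the knockout group (log2 fold change 3.71, standard error 0.29, adjusted p = 0.00376 from limma). It passed in 14 of 18 other fits, and the call was lost without WT tumor 2 (adjusted p = 0.0515), without the variance trend (0.063) and with the adipocyte covariate (0.433), among others, while the log2 fold change lay between 2.87 and 4.16 in all 18. The class II genes *Cd74*, *H2-Aa* and *H2-Eb1*, which macrophages, dendritic cells and B cells hold as well, had 1.01, 0.86 and 0.94, with knockout tumor 1 within the WT range and knockout tumors 2 and 3 above it. The mesothelial genes of the same list, *Msln* (mesothelin), *Upk3b*, *Lrrn4* and *Nkain4*, had -0.24, 0.34, 0.56 and 0.10. The list as a whole had 9 log2 fold changes above 0 and 1 below, with a median of 0.71, which ranged from 0.42 to 1.12 when 1 tumor was left out and was -0.28 with the adipocyte covariate.

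No regulator of fibroblasts passed the limits. In a list of 18, which also holds *Lrrc15*, 12 log2 fold changes were above 0 and 6 below, with a median of 0.12, which was -0.01 without WT tumor 2, 0.34 without knockout tumor 2 and 0.53 with the adipocyte covariate. *Wwtr1* (TAZ), *Yap1* and *Tead1* act together on targets of cell tension. They were highest in mean normalized counts, not scaled for length, and had 0.34, 0.10 and 0.19. *Prrx1*, a mesenchymal homeobox factor, had the smallest p, with 0.52 (adjusted p = 0.889 from limma). *Srf*, the CArG box factor, had -0.11, and its partner genes *Mrtfa* and *Mrtfb* had 0.13 and 0.07.

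**Figure D4:**
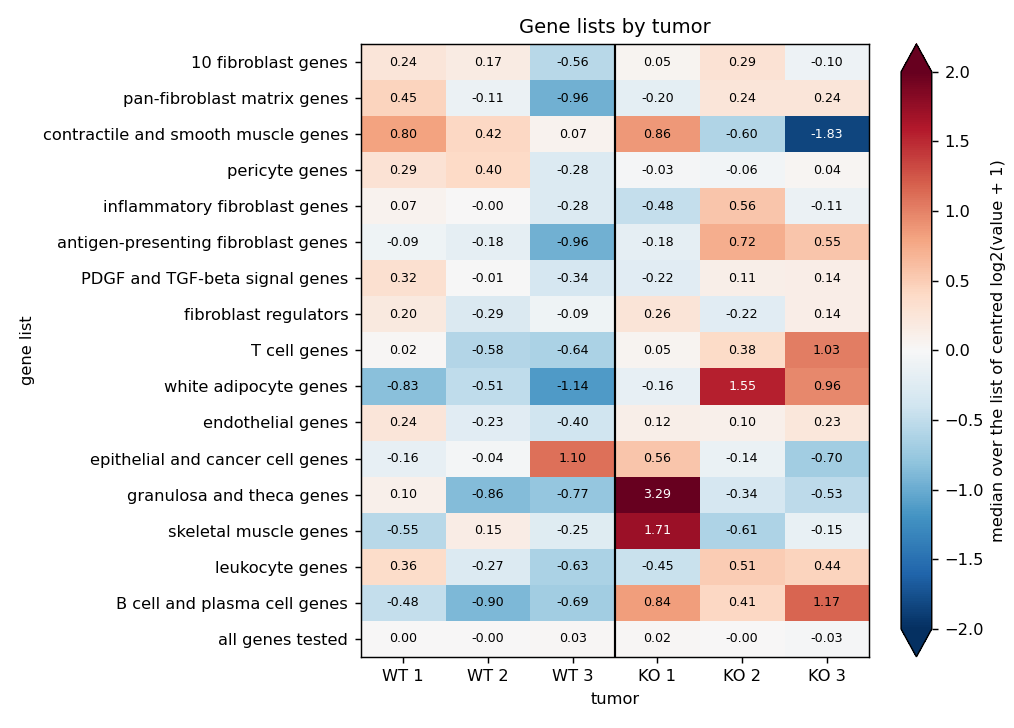
Median level of each gene list in each tumor, as log2(value + 1) minus the mean of the 6 tumors, with all 19667 genes tested in the bottom row. Contractile genes reach 0.86 in knockout tumor 1 and -1.83 in knockout tumor 3, granulosa and theca genes reach 3.29 in knockout tumor 1, epithelial genes 1.10 in WT tumor 3 and white adipocyte genes 1.55 in knockout tumor 2.

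The 10 genes did not vary as 1 block. WT tumor 3 held the lowest value for 4 of them and the highest for 0, knockout tumor 1 held the lowest for 4 and the highest for 1, and knockout tumor 2 held the highest for 3. The mean of the standardized log2 values of the 10 genes was 0.42, 0.24 and -0.90 across the WT group, against -0.14, 0.49 and -0.11 across the knockout group. WT tumor 3 was thus the lowest and knockout tumor 2 the highest. The genes whose log2 values followed this mean most closely among 12983 genes with a mean of at least 100 normalized counts were *Moap1*, *Slc10a3*, *Anxa8*, *Angptl4* and *Metrnl*, with Pearson coefficients over 6 tumors from 0.987 to 0.998, given as a measure of likeness with no test. *Angptl4*, a secreted inhibitor of lipoprotein lipase, was at 6113, 4689 and 1614 normalized counts across the WT group, against 2844, 6820 and 3535 across the knockout group, and *Anxa8*, an annexin, at 5119, 4231 and 1831 and at 2991, 5342 and 3441. Their log2 fold changes were 0.19 and 0.16.

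Leaving out tumors and adding a covariate moved the fibroblast genes by different amounts. *Tagln* was below 0 and *Pdgfra* and *Lum* above 0 in every fit, while *Acta2*, *Pdgfrb*, *Fap*, *Thy1*, *Postn*, *Dcn* and *Cthrc1* turned in at least 1. For *Tagln* the log2 fold change ranged from -1.91 to -0.64, and its lowest adjusted p in any fit was 0.318 from limma.

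**Figure D5:**
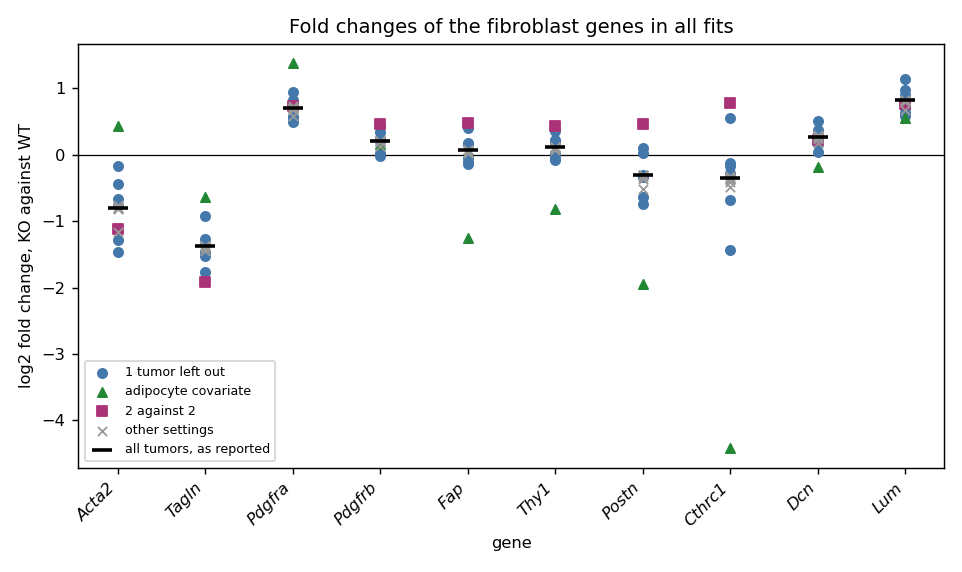
Log2 fold change of each fibroblast gene, knockout against WT tumors, in every fit; the black line is the value with all 6 tumors, circles leave out 1 tumor, squares leave out WT tumor 1 and knockout tumor 1, triangles add the white adipocyte level as a covariate and crosses are the other settings. *Cthrc1* spreads from -4.42 to 0.78, and *Tagln*, *Pdgfra* and *Lum* keep to their side of 0.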

How the data were processed

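RNA of the primary tumors of 3 WT and 3 *Tgm2* knockout mice was extracted with the RNeasy kit and sequenced from polyA-enriched libraries as paired reads. The authors quantified transcripts with kallisto (version 0.46.2, per the submitters' processing notes, which also name GRCm38), used biomaRt to bring them to genes, filtered low genes out and divided by size factors of DESeq2; their limit for low expression is not given in the sources used here. The deposited values are signal values, namely normalized counts: the table is labelled TPM, but its columns do not share a fixed total, and the values are not whole counts, so no count model was fitted. The tests had been chosen for values labelled TPM and were kept.

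Values were used as log2(value + 1), a pseudocount that understates fold changes of low genes. Genes that reached 1 normalized count in 3 or more tumors, 19667 of 20076, were fitted in limma 3.58.1 (R 4.3.3; tables in Python 3.11.15), 3 tumors against 3 with no covariate, a variance trend and empirical Bayes moderation. Two-sided p-values were adjusted by the Benjamini-Hochberg method over every gene fitted, and the fit was tested on simulated data. The limits were an adjusted p of 0.05 and a log2 fold change above 1 in size. Tumors were grouped by their genotype labels, and each is a separate mouse as far as the labels say. The limma p-values set the group difference against the spread between these tumors, moderated towards the variance trend over all genes. Positions and merged exons come from GENCODE M21 on GRCm38, to which 10 of the 10 genes matched by symbol, and promoters from RefSeq on GRCm38.p6.

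The 10 genes and 15 other lists of marker genes were chosen with earlier results of these data known, so lists are described by counts and medians without a test. Named genes are all 10, *Tgm2*, those past the limits and the 5 genes most like the mean of the 10. From each list, the 3 highest in mean normalized counts, not scaled for length, and the gene with the smallest p are named. Others were named after their values were seen. Alternatives changed the pseudocount, filter, scaling, block, weights, variance trend and limits, added the white adipocyte level as a covariate, and left out tumors; leaving out WT tumor 1 and knockout tumor 1 together was chosen after seeing the data. The same-numbered tumors' deviations from their group means correlated over genes at -0.196, 0.284 and -0.307, so the replicate numbers were not taken to pair the tumors.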

Additional observations from a re-analysis of the deposited data

How the results depend on the processing

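Under the alternatives, 0 of the 10 fibroblast genes passed the limits in every fit except at an unadjusted p with the fold limit, where 1 did (*Tagln*). With a replicate block, the replicate number as a covariate, the count of higher genes was 5, against 20 without it. No fibroblast gene changed its call, and *Slpi*, *Lep* and *Cd79a* had adjusted p-values of 0.127, 0.47 and 0.341 in limma. In deviations from the group means, WT tumor 2 correlated best with the knockout tumor of its own number (0.284). WT tumors 1 and 3 correlated best with knockout tumors 3 and 1 (0.359 and 0.355). The count of higher genes was 4 without the variance trend, 0 with the white adipocyte covariate, 13 without WT tumor 1 and knockout tumor 1, 491 at an unadjusted p with the fold limit, and 2 to 14 when 1 tumor was left out. The count of lower genes was 1 without WT tumor 1 and knockout tumor 1, 305 at an unadjusted p, and 0 to 1 when 1 tumor was left out. The number of fibroblast genes whose groups did not overlap was 1 to 3 of 10 when 1 tumor was left out, against 17.4% to 25% of all genes in the same comparisons. Their median log2 fold change was -0.41 with the adipocyte covariate, 0.46 without WT tumor 1 and knockout tumor 1, and -0.09 to 0.31 when 1 tumor was left out. Of 198 single-gene values under the alternatives, 15 changed sign and 183 did not. With the adipocyte covariate, which differs between the groups and leaves few degrees of freedom, the log2 fold change turned for *Acta2* (0.43), *Fap* (-1.25), *Thy1* (-0.82) and *Dcn* (-0.18). Without WT tumor 3 it turned for *Pdgfrb* (-0.01), *Fap* (-0.11) and *Thy1* (-0.07). Without WT tumor 1 it turned for *Postn* (0.11). Without knockout tumor 1 it turned for *Postn* (0.03) and *Cthrc1* (0.55), and without both of these tumors for *Postn* (0.46) and *Cthrc1* (0.78). Without knockout tumor 2 it turned for *Fap* (-0.14), and without knockout tumor 3 for *Fap* (-0.04) and *Thy1* (-0.04). When 1 tumor was left out, the values ranged from -0.01 to 0.43 for *Pdgfrb*, from -0.14 to 0.40 for *Fap*, from -0.07 to 0.36 for *Thy1*, from -0.74 to 0.11 for *Postn* and from -1.44 to 0.55 for *Cthrc1*. The cause was not tested.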

Other observations

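Among cells that border on fibroblasts, all 16 white adipocyte genes had a log2 fold change above 0, knockout against WT, with a median of 1.53, from 1.08 to 2.10 when 1 tumor was left out, and 9 had every knockout tumor above every WT tumor, against 5.18% of all genes. *Lep*, the gene of leptin, passed the limits: it was at 43.5, 40.7 and 18.2 normalized counts across the WT group, against 333.7, 494.4 and 512.0 across the knockout group (log2 fold change 3.74, adjusted p = 0.0393 from limma). It passed in 6 of 18 other fits: the call was lost whichever tumor was left out (adjusted p from 0.0533 to 0.284) and with the level of the list itself as a covariate (0.609), among others, with log2 fold changes from 2.73 to 4.15 in the 18 fits. The most abundant of the list, *Lpl*, *Cfd* and *Scd1*, had 0.48, 1.65 and 1.43 and did not pass. Of 10 B cell and plasma cell genes, 3 rose past the limits, against 0.102% of all genes, *Jchain* (4.80), *Mzb1* (4.27) and *Cd79a* (3.01), and 9 had every knockout tumor above every WT tumor, against 5.18% of all genes. The median was 1.57, from 1.28 to 1.78 when 1 tumor was left out, while *Xbp1* and *Sdc1* had 0.51 and -0.13. *Jchain* passed in 17 of 18 other fits and not with the adipocyte covariate (log2 fold change 4.25, adjusted p = 0.26 from limma). *Mzb1* passed in 15 and not without WT tumor 2 (0.0692), without the variance trend (0.063) or with the covariate (0.506), with log2 fold changes from 4.03 to 4.60 in all 18. *Cd79a* passed in 7, its call being lost whichever tumor was left out (0.0638 to 0.161) and with the covariate (0.547), among others, with log2 fold changes from 2.78 to 3.22. Of 12 endothelial genes, 9 log2 fold changes were above 0 and 0 passed, with a median of 0.38. *Pecam1*, *Flt1* and *Eng*, highest in mean normalized counts not scaled for length, had 0.47, -0.10 and 0.53. *Cdh5*, with the smallest p, had 0.75. Of 10 leukocyte genes, 8 were above 0 and 0 passed, with a median of 0.44, which was 0.23 without WT tumor 3, 0.78 without knockout tumor 1 and -0.91 with the adipocyte covariate; *Laptm5*, *Csf1r*, *Coro1a* and *Itgb2* had 0.54, 0.71, 0.41 and 0.79.

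The tissue lists around the fibroblasts had no other gene past the limits. Of 10 epithelial and cancer cell genes, 7 were below 0, with a median of -0.42, which was 0.18 without WT tumor 3, -0.87 without WT tumor 1 and 0.85 with the adipocyte covariate. *Krt8* and *Krt19* had every knockout tumor below every WT tumor (-0.43 and -0.40), as 5.33% of all genes did, while *Wt1* had 0.11 and *Krt18*, with the smallest p, -0.51. Of 12 granulosa and theca genes, 11 passed the filter and had a median of 0.83, which ranged from -0.44, without knockout tumor 1, to 1.41 when 1 tumor was left out and was 5.15 with the adipocyte covariate; *Star*, *Cyp11a1*, *Hsd3b1* and *Nr5a1* had -0.01, 0.52, 1.33 and 0.64. Of 10 skeletal muscle genes, 9 passed the filter, with a median of -0.02, from -0.64 to 0.25 when 1 tumor was left out and 1.65 with the adipocyte covariate, and *Actn3*, *Acta1* and *Tnni2* had 1.04, -0.55 and -0.02.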
